A study of Mus musculus with 10 samples.

Results

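Protamine-high elongating spermatids were taken from single-cell RNA-seq of whole mouse testis as the barcodes in which the protamine genes Prm1 and Prm2 and the transition protein genes Tnp1 and Tnp2 together held at least 8% of all UMIs (unique molecular identifiers, each standing for 1 captured RNA molecule). The cells were thus chosen by the measured levels of these 4 genes. A barcode was considered from 1000 UMIs and 500 genes upward, if no more than 10% of its UMIs were mitochondrial. It could hold at most 1 UMI of the Sertoli genes Cst9 and Cst12 and at most 1 of the Leydig genes Insl3 and Cyp17a1. These limits left 828 of 8098 barcodes in replicate 1 and 1651 of 14262 in replicate 2, together 2479 of 22360. That is 10.2% of the passing barcodes in replicate 1 (exact Clopper-Pearson 95% interval 9.57 to 10.9) and 11.6% in replicate 2 (11.1 to 12.1), intervals that cover counting error only. Throughout, values come in the order replicate 1, then replicate 2.

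Both single-cell samples carried the genotype Smarca5 fl/delta; Ddx4-Cre+, a conditional knockout of the chromatin remodeler SMARCA5 in which Cre is expressed in germ cells from the Ddx4 promoter. The other 8 samples of the series are ATAC-seq libraries of sorted germ cells, namely 2 of cKIT+ cells and 2 of pachytene spermatocytes from the same conditional knockout, and 2 of each from wild type C57BL6 mice. The single-cell samples have no wild-type counterpart here, so every single-cell comparison below is between cells of the same knockout testes, and knockout stands beside wild type only in the ATAC peak lists. P-values below measure how far differences between cell groups vary from sample to sample, after the overall difference between the samples is removed. The labels do not say whether the samples came from separate animals, so that spread may be technical.

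After meiosis a round spermatid reshapes its nucleus, builds an acrosome over it and a tail behind it, and sheds most of its cytoplasm. In the nucleus, histones are first displaced with the help of transition proteins and then replaced by protamines, small arginine-rich proteins that pack sperm DNA tightly. Transcription stops during this packing, so later steps depend on mRNAs made earlier and stored in the cytoplasm.

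In mouse, Prm1, Prm2, Prm3 and Tnp2 lie beside each other on chromosome 16, and Tnp1 lies apart on chromosome 1. The first 120 bases upstream of each start site (RefSeq, GRCm38.p6, all 5 genes on the minus strand) are shown because these genes define the cells. Capitals mark the motif TGANNTCA, a palindromic relaxed form of TGACGTCA, the element bound by CREM, a transcription factor of round spermatids.
Prm1, chr16:10796824-10796943: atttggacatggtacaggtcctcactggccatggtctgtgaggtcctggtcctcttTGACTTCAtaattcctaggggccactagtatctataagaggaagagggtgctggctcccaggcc
Prm2, chr16:10792106-10792225: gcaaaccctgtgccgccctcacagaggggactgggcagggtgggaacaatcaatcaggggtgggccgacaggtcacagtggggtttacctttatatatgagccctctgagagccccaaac
Tnp1, chr1:73015900-73016019: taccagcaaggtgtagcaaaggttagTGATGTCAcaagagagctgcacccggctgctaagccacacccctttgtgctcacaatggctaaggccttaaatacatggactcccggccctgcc
Tnp2, chr16:10788656-10788775: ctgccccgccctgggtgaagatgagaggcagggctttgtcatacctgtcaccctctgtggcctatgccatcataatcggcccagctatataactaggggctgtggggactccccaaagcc
Prm3, chr16:10790915-10791034: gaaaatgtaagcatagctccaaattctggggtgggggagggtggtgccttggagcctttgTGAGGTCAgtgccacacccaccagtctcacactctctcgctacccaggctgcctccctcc

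The motif lay 64 to 57 bases upstream of the start of Prm1 (TGACTTCA), 94 to 87 bases upstream of Tnp1 (TGATGTCA) and 60 to 53 bases upstream of Prm3 (TGAGGTCA). It was not found within 250 bases upstream of Prm2, Tnp2 or the spermatid linker histone gene Hils1, and the full TGACGTCA was found in none of these 6 windows. Among all 32544 promoters, 11.9% held TGANNTCA and 1.55% TGACGTCA in the same 250 bases, both strands read. A match of letters is not a measured binding site.

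Each of the 4 transcripts made up several percent of the RNA of these cells, and these values describe the selection, since they made it. Prm1 held 3.65% and 3.95% of all UMIs in protamine-high cells, 1.08% and 1.26% in intermediate spermatids, and 0.0540% and 0.0396% in round spermatids. Prm2 held 3.67% and 4.05% in protamine-high cells, 1.23% and 1.37% in intermediate spermatids, and 0.0582% and 0.0552% in round spermatids. Intermediate spermatids were barcodes with at least 2% and under 8% from the 4 genes and a UMI of the acrosomal genes Acrv1 or Spaca1 (432 and 613 cells). Round spermatids had under 1% from the 4 genes, at least 3 UMIs of Acrv1 and Spaca1 and at most 1 of the spermatocyte genes Ccna1 and Piwil1 (694 and 986 cells).

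Tnp1 held 2.56% and 2.10% in protamine-high cells, 0.927% and 0.881% in intermediate spermatids, and 0.0847% and 0.0803% in round spermatids. Tnp2 held 3.41% and 3.25% in protamine-high cells, 1.15% and 1.20% in intermediate spermatids, and 0.0707% and 0.0811% in round spermatids. The replicates lay close together for each gene, and the order of the 3 cell groups is the one the selection set. Cells differed among themselves in each gene. From the 5th to the 95th percentile of cells, Prm1 spanned 2.05 to 6.64% and 2.18 to 6.86%, and Prm2 2.11 to 8.71% and 2.38 to 9.77%. Tnp1 spanned 0.252 to 4.41% and 0.145 to 3.55%, and Tnp2 0.541 to 5.65% and 0.482 to 5.57%. Tnp1 was without a UMI in 9 and 36 protamine-high cells, and Prm2 in 0 and 0.

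**Figure D1:**
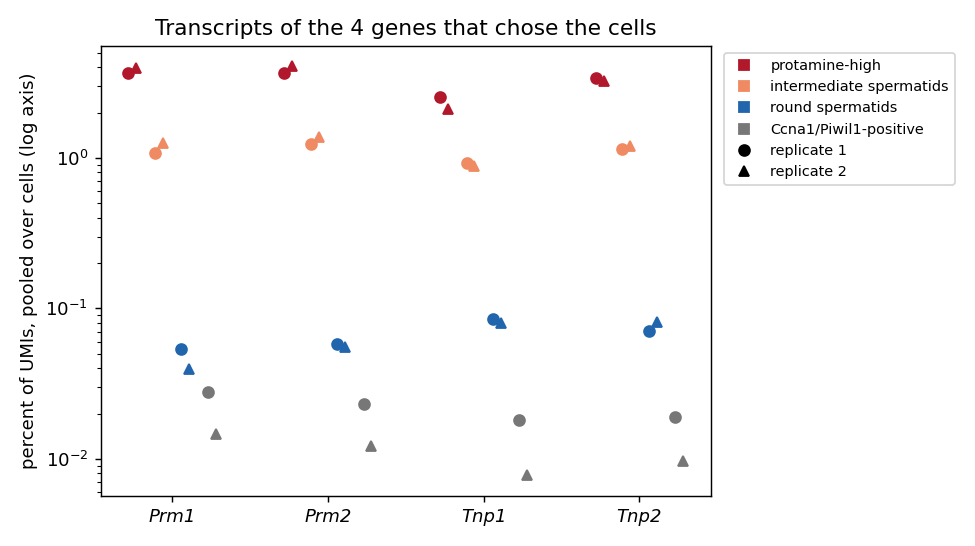
Share of UMIs held by Prm1, Prm2, Tnp1 and Tnp2 (log axis, percent, pooled over cells) in protamine-high cells, intermediate spermatids, round spermatids and spermatocytes with at least 3 UMIs of Ccna1 and Piwil1, with a circle for replicate 1 and a triangle for replicate 2. Protamine-high cells sit between 2.10% and 4.05% for each gene and round spermatids at 0.0847% or below, by the way the groups were chosen.

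The same transcripts were present at a lower level in barcodes that were not late spermatids. In replicate 1, whose file keeps every barcode, 15453 barcodes with 10 to 100 UMIs gave 2.64% from the 4 genes. Barcodes taken as Sertoli cells by their own markers gave 3.25% and 3.39%, those taken as macrophages 1.17% and 0.971%, those taken as Leydig cells 0.673% and 0.891%, and spermatocytes 0.0880% and 0.0443%. These are shares of pooled UMIs, and the median barcode held less, at 0.373% and 0.197% in Sertoli cells, 0.322% and 0.161% in macrophages and 0.152% and 0.0874% in Leydig cells. The pooled shares are all below the limit of 8%. The Sertoli and Leydig limits removed 144 barcodes (14.8%) and 236 barcodes (12.5%) that had passed it. The remaining 13 Sertoli markers held 0.135% and 0.149% of the UMIs of the 124 and 164 barcodes removed for Cst9 and Cst12, and 0.0402% and 0.0446% of those of the 22 and 82 removed for Insl3 and Cyp17a1, against 0.0112% and 0.00803% in the cells kept.

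No natural gap marked the limit. Replicate 1 had 54 barcodes at 8 to 9% and 66 at 7 to 8%, and replicate 2 had 111 and 111. An Acrv1 or Spaca1 UMI was present in 63.0% and 78.4% of barcodes just inside, against 60.6% and 77.5% just outside. The summed share had a median of 13.7% and 13.9% over the members and reached 26.7% and 26.9%.

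The data sets differ in depth, with 63605819 UMIs over 987771 listed barcodes in replicate 1 and 115830234 over 17744 in replicate 2, where no listed barcode has under 500. Protamine-high cells held 3434585 and 11345357 UMIs in all. They had a median of 3066 and 4450 UMIs, against 5964 and 10319 in intermediate spermatids and 4895.5 and 7431.5 in round spermatids. Only the last 2 groups had to hold UMIs of Acrv1 or Spaca1, a condition that barcodes with few UMIs meet less easily. The part of this condition in the difference was not tested. With every cell thinned to 700 UMIs outside the 4 genes, protamine-high cells showed a median of 530 and 514 genes, against 573.5 and 560 in intermediate spermatids and 577 and 564 in round spermatids. Unthinned, they showed 1405.5 and 1619. The replicates share 32 barcode sequences, 0 of them among protamine-high cells, and Scrublet called 3.02% and 5.09% of protamine-high cells doublets.

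The name elongating spermatid was checked on markers that chose no cell group. The other 10 elongating-spermatid markers, among them Smcp, Odf1 and Gapdhs, summed to 2.44% and 2.45% of UMIs outside the 4 genes in protamine-high cells, against 0.819% and 1.00% in round spermatids, and 10 of 10 were higher in each replicate. Intermediate spermatids lay between these groups, at 1.415% and 1.467%. The 13 round-spermatid markers other than Acrv1 and Spaca1 summed to 0.242% and 0.265% in protamine-high cells, against 0.338% and 0.396% in round spermatids. Of these, 10 were lower and 3 higher in each replicate, Hemgn among the higher ones at 473 and 415 CPM of all UMIs, against 36.5 and 33.7. The 11 pachytene markers other than Ccna1 and Piwil1 summed to 0.132% and 0.0956%, against 0.402% and 0.347%, with 10 lower in each replicate.

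Markers of somatic cells held a small part of the UMIs. The Leydig and endothelial lists held less than in round spermatids in both replicates, and the erythroid list in replicate 1 only. The other somatic lists held more in both. The 13 Sertoli markers other than Cst9 and Cst12 held 0.0129% and 0.00927% in protamine-high cells, with 2 and 0 of them at 0, and 0.00620% and 0.00493% in round spermatids. The 12 macrophage markers held 0.0226% and 0.0342% in protamine-high cells, against 0.00591% and 0.00742%. The 12 peritubular or stromal markers held 0.0135% and 0.0116%, against 0.00788% and 0.00780% in round spermatids and 0.00782% and 0.00798% over all passing barcodes. The 7 T cell markers held 0.00467% and 0.00422%, against 0.00242% and 0.00332% in round spermatids and 0.00231% and 0.00358% over all. Every other somatic list held less in protamine-high cells than over all passing barcodes. The part of such RNA in the results below was not tested.

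The next comparison asks which transcripts other than the 4 genes set protamine-high cells apart from round spermatids of the same testes. UMIs were summed per replicate and cell group, and edgeR's quasi-likelihood test with Benjamini-Hochberg adjustment was run over 15720 genes with the replicate as a block. The 12 genes that chose any group and the mitochondrial genes were left out. A gene was called at an adjusted p under 0.05 and a log2 fold change of at least 1 in size. Where groups are said not to overlap, this describes the sums of that gene and adds no evidence beyond the test. The share of all tested genes without overlap is not given. Because cells were placed along the lineage by their protamine transcripts, the test describes that cut through the lineage. In protamine-high cells 3531 genes (22.5%) rose and 3528 (22.4%) fell, so 44.9% of all genes tested were called. Levels are given as scaled CPM, the CPM of a gene among the UMIs left in the table after TMM scaling of the library size, and they compare a gene between cell groups, not genes with each other.

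Of 38 chromatin packaging genes tested, 10 rose (26.3%) and 10 fell (26.3%), close to the 22.5% and 22.4% of all genes. The median log2 fold change was 0.22, against −0.02 over all genes, or −0.48 against −0.72 with plain shares of all UMIs. Hmgb4, a testis HMG-box protein, stood at 6144 and 7551 scaled CPM in protamine-high cells, against 1030 and 1524 in round spermatids. Both protamine-high sums lay far above both round ones (log2 fold change 2.44 ± 0.06, SE; adjusted p = 6.3e-16). The spermatid linker histones behaved alike. H1fnt, needed for nuclear condensation in mouse, stood at 2879 and 3583 in protamine-high cells, against 459 and 700 (log2 fold change 2.50 ± 0.07). Hils1 stood at 2774 and 5014, against 851 and 1555 (log2 fold change 1.70 ± 0.05). For both genes the groups did not overlap.

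Prm3, the acidic gene of the protamine cluster, stood at 2292 and 2801 scaled CPM in protamine-high cells, against 490 and 688 in round spermatids, again without overlap (log2 fold change 2.12 ± 0.06, adjusted p = 9.4e-15). Members that fell included H3f3b and Npm1. H3f3b, which encodes histone H3.3, stood at 411 and 287 in protamine-high cells, against 1656 and 2663 in round spermatids. It was the lower in both protamine-high sums (log2 fold change −2.62 ± 0.17, adjusted p = 3.4e-10). The nucleolar histone chaperone Npm1 stood at 125 and 118, against 550 and 577 (log2 fold change −2.21 ± 0.08). Phf7, a reader of histone marks needed for histone removal in mouse, was not called, at 1850 and 1993, against 1175 and 1143 (log2 fold change 0.73 ± 0.06).

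Genes of the tail, the longest list, rose more often than all genes and fell about as often. Of 53 tested, 21 rose (39.6%, against 22.5% of all genes) and 12 fell (22.6%, against 22.4%). The median log2 fold change was 0.63, against −0.02 over all genes, which turns to −0.07 against −0.72 with plain shares of all UMIs. Smcp, a cysteine-rich protein of the mitochondrial sheath, was at 8672 and 9714 scaled CPM in protamine-high cells, against 1714 and 1965 in round spermatids. That difference was about equal in both replicates (log2 fold change 2.32 ± 0.05, adjusted p = 7.0e-17). The outer dense fibre gene Odf2 was at 3188 and 3819, against 884 and 1061 (log2 fold change 1.85 ± 0.05), and the fibrous sheath binder Ropn1 at 3085 and 4654, against 861 and 1365 (log2 fold change 1.80 ± 0.05). Neither overlapped between the groups. The sperm calcium-binding gene Cabs1 was at 2982 and 3052, against 175 and 226 (log2 fold change 3.91 ± 0.08).

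Members of the tail list that fell included Tekt2. This gene, which encodes a tektin of the axoneme, was at 95.2 and 147 scaled CPM in protamine-high cells, against 531 and 823 in round spermatids (log2 fold change −2.48 ± 0.08, adjusted p = 2.4e-14). Its groups did not overlap. Meig1, a manchette protein needed for tail building in mouse, was not called, at 8997 and 8651, against 5759 and 5666 (log2 fold change 0.63 ± 0.04, or −0.07 with plain shares).

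Acrosome genes fell more often than they rose. Of 35 tested, 5 rose (14.3%) and 17 fell (48.6%, against 22.4% of all genes), with a median log2 fold change of −0.90. The zona-binding gene Zpbp stood at 86.6 and 118 scaled CPM in protamine-high cells, against 413 and 541 in round spermatids. It was several times lower in each replicate (log2 fold change −2.22 ± 0.08, adjusted p = 1.7e-13). The acrosomal lysozyme-like gene Spaca3 stood at 194 and 372, against 430 and 816 (log2 fold change −1.14 ± 0.07). Among the 5 that rose, Spaca9 stood at 2333 and 3486, against 322 and 555 (log2 fold change 2.75 ± 0.06), and Hook1, the manchette protein mutated in azh mice, at 569 and 535, against 145 and 113 (log2 fold change 2.11 ± 0.09). Crisp2, an acrosomal and tail protein, was not called at 3567 and 3539, against 2064 and 1941 (log2 fold change 0.83 ± 0.05). Acrv1 and Spaca1 themselves chose the groups and were not tested. Round spermatids had to hold at least 3 UMIs of these acrosomal genes, a condition not set for protamine-high cells. The falls of other acrosome genes may thus follow in part from the selection, which was not tested.

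Of 20 genes of sperm glycolysis and energy supply, 3 rose (15%, against 22.5% of all genes) and 8 fell (40%, against 22.4%), with a median log2 fold change of −0.53. Gapdhs, the sperm form of glyceraldehyde phosphate dehydrogenase, reached 1860 and 2005 scaled CPM in protamine-high cells, against 298 and 413 in round spermatids, with no overlap (log2 fold change 2.45 ± 0.08, adjusted p = 4.8e-14). Pgk2, the testis phosphoglycerate kinase, reached 1034 and 905, against 424 and 476 (log2 fold change 1.10 ± 0.08), and it missed the fold limit without replicate 1 (0.93) and with plain shares (0.41). Ldhc, the testis lactate dehydrogenase, was not called, at 6072 and 8114, against 5170 and 6509 (log2 fold change 0.27 ± 0.04, or −0.42 with plain shares). Falling members included the cytochrome oxidase subunit Cox8c, at 603 and 452, against 1685 and 1535 (log2 fold change −1.63 ± 0.07), and the acylphosphatase Acyp1, at 138 and 60.4, against 912 and 887 (log2 fold change −3.31 ± 0.17).

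**Figure D2:**
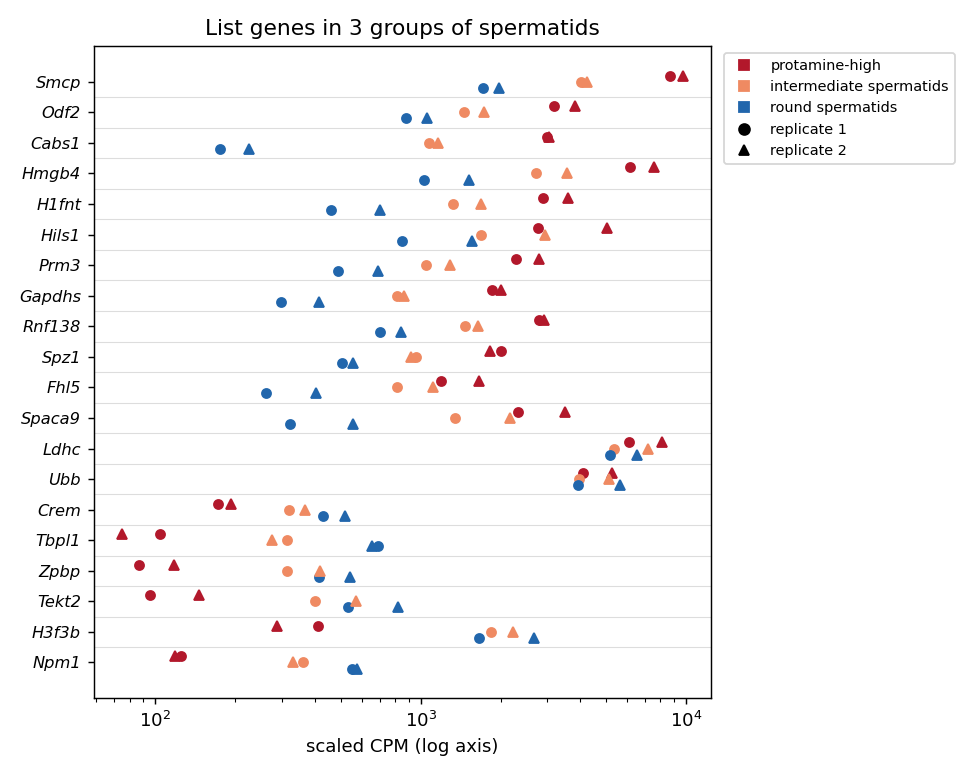
Scaled CPM (log axis) of list genes in protamine-high, intermediate and round spermatids, with a circle for replicate 1 and a triangle for replicate 2. Smcp, Hmgb4 and Gapdhs are highest in protamine-high cells in both replicates, H3f3b, Zpbp and Tbpl1 are lowest there, and the groups overlap for Ubb.

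Of 35 genes of RNA storage and translation, 5 rose (14.3%, against 22.5% of all genes) and 8 fell (22.9%, against 22.4%), with a median log2 fold change of −0.45, against −0.02 over all genes. Paip2, an inhibitor of poly(A)-binding protein needed for late spermatid translation in mouse, was at 1459 and 2111 scaled CPM in protamine-high cells, against 517 and 776 in round spermatids, with no overlap (log2 fold change 1.47 ± 0.06, 0.78 with plain shares and then not called). The RNA-binding gene Fxr1 was at 695 and 673, against 351 and 308 (log2 fold change 1.06 ± 0.07), a call that ended at 0.99 without replicate 2, at 0.998 without the filter on low counts and at 0.37 with plain shares. Pabpc1, the poly(A)-binding protein itself, was at 627 and 692, against 1438 and 1324 (log2 fold change −1.06 ± 0.07, or −0.94 without replicate 1). The Y-box protein Ybx3, which holds protamine mRNAs in storage in mouse, was at 2004 and 1747, against 1904 and 1771 (log2 fold change 0.03 ± 0.05, adjusted p = 0.67), so these groups overlapped.

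Of 26 ubiquitin and proteasome genes, 10 rose (38.5%, against 22.5% of all genes) and 2 fell (7.69%, against 22.4%). The median log2 fold change was 0.74, or 0.05 against −0.72 over all genes with plain shares. The ubiquitin ligase gene Rnf138 was at 2792 and 2918 scaled CPM in protamine-high cells, against 705 and 844 in round spermatids (log2 fold change 1.89 ± 0.06, adjusted p = 1.8e-14). Psmf1, a proteasome inhibitor, was at 950 and 1248, against 184 and 304 (log2 fold change 2.19 ± 0.08). The conjugating enzyme gene Ube2j1, needed for spermatid maturation in mouse, was at 888 and 1256, against 172 and 318 (log2 fold change 2.16 ± 0.08). For all 3 genes both protamine-high sums were above both round sums. The neddylation gene Dcun1d1 followed at 863 and 970, against 172 and 203 (log2 fold change 2.29 ± 0.07). Polyubiquitin Ubb was at 4075 and 5263, against 3909 and 5640, with overlapping groups (log2 fold change −0.02 ± 0.05, adjusted p = 0.71).

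Of 20 transcription regulators of spermatids, 2 rose (10%) and 5 fell (25%), the share falling being near the 22.4% of all genes (median log2 fold change −0.38, against −0.02 over all genes). Those that rose were Spz1, a helix-loop-helix factor at 2006 and 1824 scaled CPM in protamine-high cells, against 505 and 557 in round spermatids (log2 fold change 1.85 ± 0.07), and Fhl5, a coactivator of CREM at 1198 and 1661, against 262 and 403 (log2 fold change 2.11 ± 0.07). Crem itself was lower, at 172 and 193, against 428 and 517 (log2 fold change −1.37 ± 0.08, adjusted p = 5.9e-11). Tbpl1, a TBP relative needed for spermiogenesis in mouse, was lower still, at 104 and 74.8, against 690 and 658 (log2 fold change −2.95 ± 0.10). For these 4 genes, all of them called, the groups did not overlap, which is a description and not further evidence.

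In the manchette and tubulin list, 9 of 33 genes rose (27.3%, against 22.5% of all genes) and 11 fell (33.3%, against 22.4%), with a median log2 fold change of −0.50, against −0.02 over all genes. The alpha tubulin gene Tuba8 was at 501 and 540 scaled CPM in protamine-high cells, against 35.6 and 54.9 in round spermatids, far apart in both replicates (log2 fold change 3.53 ± 0.11, adjusted p = 2.4e-14). Tuba3a and Tuba3b were among those called lower, but they are near-identical copies whose reads may be split between them, so their values are uncertain.

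**Figure D3:**
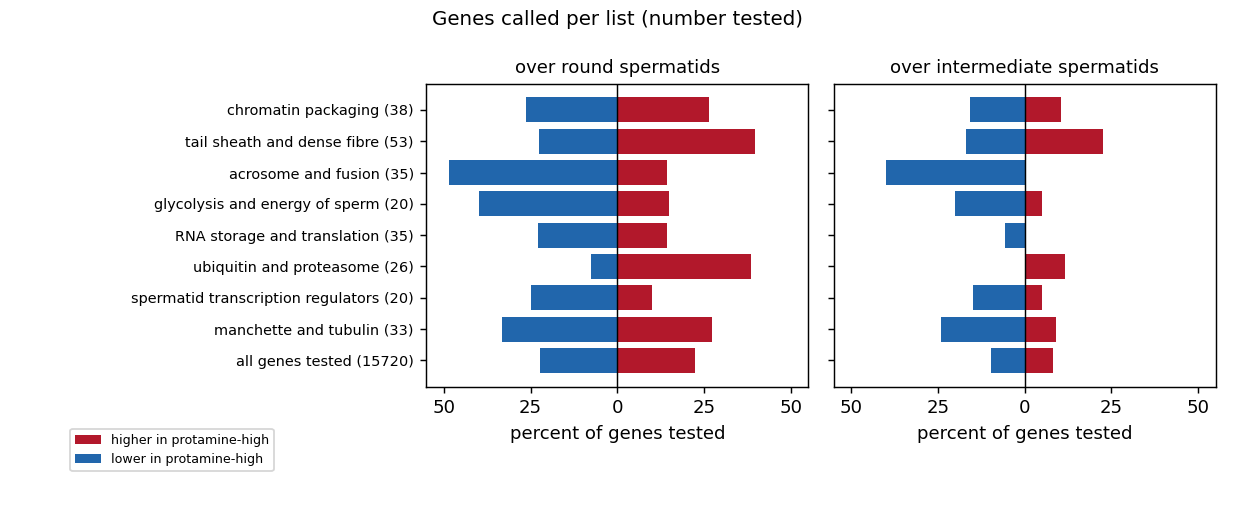
Percent of the tested genes of each list, and of all genes tested, that were called higher (bars to the right) or lower (bars to the left) in protamine-high cells, against round and against intermediate spermatids, with the number tested in brackets. Against round spermatids 39.6% of the tail genes were higher, the most of any list, and 48.6% of the acrosome genes were lower.

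Outside the lists, the largest changes included genes with only a model name. Gm12970 had 168 and 727 UMIs in protamine-high cells, against 0 and 2 in round spermatids. Nudt16l2 was at 613 and 797 scaled CPM, against 4.79 and 3.03 (log2 fold change 7.60 ± 0.16, adjusted p = 1.2e-16). Among the falls, Glipr1l1, a sperm surface protein, was at 15.3 and 9.95, against 303 and 370 (log2 fold change −4.86 ± 0.16), and the sister chromatid cohesion gene Dscc1 at 15.7 and 13.9, against 339 and 451 (log2 fold change −4.80 ± 0.14). After the 4 genes, the transcripts with the highest scaled CPM were Smcp, Meig1 and Eif1, and Fabp9, Ldhc, Hmgb4, Mlf1, Gsg1, Dbil5 and Gm5617 made up the rest of the top 10.

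The motif shown above was counted in the promoters of the genes called. Of the 2525 genes called higher that had a RefSeq promoter, 413 (16.4%) held it within 250 bases upstream, beside 341 of 2567 (13.3%) called lower and 1529 of 11484 (13.3%) tested. These shares are a description, with no test.

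Against intermediate spermatids, the nearest cells on the same path, fewer genes differed. In protamine-high cells 1273 of 15720 genes (8.1%) rose and 1546 (9.83%) fell, 17.9% called in all, with a median of −0.05 over all genes or −0.51 with plain shares. Acrosome genes again lay on the falling side, 0 rising and 14 of 35 falling (median log2 fold change −0.74). Here too the selection may play a part, as only intermediate spermatids had to hold an Acrv1 or Spaca1 UMI. Tail genes divided into 12 rising and 9 falling of 53, chromatin packaging genes into 4 and 6 of 38, ubiquitin genes into 3 and 0 of 26, and RNA storage genes into 0 and 2 of 35. Glycolysis genes gave 1 rising and 4 falling of 20, transcription regulators 1 and 3 of 20, and manchette genes 3 and 8 of 33.

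Smcp was at 8672 and 9714 scaled CPM in protamine-high cells, against 4005 and 4239 in intermediate spermatids (log2 fold change 1.16 ± 0.04, adjusted p = 1.7e-11). Hmgb4 was at 6144 and 7551, against 2711 and 3553 (log2 fold change 1.13 ± 0.06). In both genes each protamine-high sum exceeded each intermediate sum, as it did in Cabs1, at 2982 and 3052, against 1074 and 1164 (log2 fold change 1.43 ± 0.07), and in Gapdhs, at 1860 and 2005, against 817 and 862 (log2 fold change 1.20 ± 0.08). Scrublet called 18.3% and 19.6% of intermediate barcodes doublets, and without called doublets Smcp (0.91) and Hmgb4 (0.89) were under the fold limit. With plain shares the calls of all 4 ended, at 0.70 for Smcp, 0.68 for Hmgb4, 0.97 for Cabs1 and 0.74 for Gapdhs.

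The falls from the neighbouring group were as large as those from round spermatids for H3f3b, at 411 and 287 scaled CPM in protamine-high cells, against 1841 and 2224 in intermediate spermatids (log2 fold change −2.55 ± 0.17, adjusted p = 2.6e-09). Zpbp was at 86.6 and 118, against 312 and 418 (log2 fold change −1.84 ± 0.08), and Tbpl1 at 104 and 74.8, against 314 and 274 (log2 fold change −1.75 ± 0.10). None of the 3 overlapped. Spaca3 was at 194 and 372, against 468 and 844 (log2 fold change −1.22 ± 0.07), and without the replicate block its adjusted p was 0.0762. Outside the lists, the tropomodulin gene Tmod4 stood at 67.2 and 102, against 10.5 and 13.7 (log2 fold change 2.81 ± 0.23), and the WAVE-complex gene Wasf2 at 240 and 205, against 42.7 and 31.6 (log2 fold change 2.60 ± 0.14). The largest fall was 1700001P01Rik, at 34.0 and 31.1, against 345 and 500 (log2 fold change −3.78 ± 0.15).

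The targeted gene, Smarca5, was scarce. Protamine-high cells held 38 and 79 of its UMIs, which is 14.2 and 10.6 scaled CPM, against 9.77 and 6.47 in round spermatids (log2 fold change 0.64 ± 0.22, adjusted p = 0.0175, −0.05 with plain shares) and 12.8 and 7.56 in intermediate spermatids (log2 fold change 0.34 ± 0.23, adjusted p = 0.256). It was called in neither comparison. As CPM of all UMIs it was at 11.1 (95% Poisson interval 7.83 to 15.2) and 6.96 (5.51 to 8.68) in protamine-high cells, against 43.6 (32.0 to 58.0) in barcodes of replicate 1 with 10 to 100 UMIs. How much free RNA these cells hold was not measured. Levels at or below that of free RNA are therefore not read as expression here. A 3′ tag can also come from a transcript without the deleted exons, so these counts do not check the deletion.

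Smarca1, which encodes the related ISWI ATPase SNF2L, gave 14 and 38 UMIs in protamine-high cells, or 5.22 and 5.11 scaled CPM, against 1.92 and 2.32 in round spermatids (log2 fold change 1.24 ± 0.34, adjusted p = 0.0044 with edgeR and 0.079 with DESeq2). Against intermediate spermatids, at 2.62 and 2.04, the log2 fold change was 1.19 ± 0.37 (adjusted p = 0.0161, 0.0658 without the replicate block and 0.138 with DESeq2, and 0.73 with plain shares). As CPM of all UMIs Smarca1 was at 4.08 (2.23 to 6.84) and 3.35 (2.37 to 4.60) in protamine-high cells. Barcodes with 10 to 100 UMIs gave 6.49 (2.61 to 13.4) from 7 UMIs. Smarca1 too thus lay no higher than free RNA and is not read as expression here.

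Within the protamine-high cells, the share with a UMI of Acrv1 or Spaca1 was lower where the summed share of the 4 genes was higher. In bins of 8 to 12%, 12 to 20% and at least 20% from the 4 genes, replicate 1 had 280, 484 and 64 cells and replicate 2 had 491, 1026 and 134. A UMI of Acrv1 or Spaca1 was seen in 58.2%, 22.9% and 9.38% of these cells in replicate 1 and in 61.9%, 24.3% and 9.70% in replicate 2. Median UMIs differed too, at 4312.5, 2721 and 2538.5 in replicate 1 and 7436, 3732 and 4037 in replicate 2. Acrv1 and Spaca1 together also fell as CPM of UMIs outside the 4 genes. They were at 491, 119 and 45.4 CPM in replicate 1 and 732, 97.4 and 28.0 CPM in replicate 2. The part of median UMIs in the falling shares of cells was not tested. The bins are cut on the values that chose the cells, so what follows is a description in CPM of UMIs outside the 4 genes. Acrosome genes did not all follow Acrv1 and Spaca1, since Crisp2 was at 2763, 3461 and 4611 CPM in replicate 1 and 2308, 2875 and 3715 in replicate 2, and Izumo2 at 560, 642 and 798 and at 539, 629 and 849.

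Smcp went with the bins at 6363, 8642 and 12030 CPM in replicate 1 and 5751, 8227 and 11613 in replicate 2. Gapdhs took the same course at 1370, 1842 and 2653 CPM in replicate 1 and 1174, 1708 and 2405 in replicate 2. Both were highest where protamine RNA was highest. The reverse order held for Pabpc1, at 836, 366 and 156 CPM and at 857, 289 and 112, and for Zpbp between the first and the later bins, at 116, 50.1 and 19.5 and at 171, 27.0 and 29.9. The nuclear long noncoding RNA Malat1 was at 314, 208 and 51.9 CPM and at 286, 163 and 71.1. All lay below its 1190 CPM of all UMIs in free RNA of replicate 1 (barcodes of 10 to 100 UMIs). The part of free RNA in them was not measured, so these levels are not read as expression here. Some genes held their level until the last bin, among them Ldhc at 5687, 5502 and 3158 CPM and at 6576, 6146 and 2586, and Hils1 at 2515, 2594 and 1375 and at 3713, 4096 and 1550.

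Some protamine-high cells held almost no transition protein RNA. Cells with under 1% of UMIs from Tnp1 and Tnp2, a limit set after the values were seen, numbered 46 (5.56%) and 89 (5.39%). A limit of 0.5% gave 32 and 69 cells and a limit of 2% gave 57 and 115. Since every member holds at least 8% from the 4 genes, a high sum of Prm1 and Prm2 in the subset follows from the selection, while its division between the 2 genes does not. In the subset Prm2 held 11.1% and 11.7% of UMIs and Prm1 1.95% and 2.64%, against 3.50% and 3.87% for Prm2 and 3.69% and 3.98% for Prm1 in the other protamine-high cells. The ratio of Prm2 to Prm1 was thus 5.71 and 4.41 in the subset, against 0.949 and 0.972 in the others. Its size in the subset depended on the limit, at 9.73 and 6.18 with 0.5% and at 3.78 and 3.52 with 2%. Cells of the subset were not alike, since Prm1 spanned 0.220 to 6.24% and 0.107 to 6.46% from their 5th to their 95th percentile. Cells of the subset gave fewer UMIs, with a median of 1501 and 2720, against 3298.5 and 4699, and fewer genes, with 699.5 and 908, against 1455 and 1717. Mitochondrial UMIs had a median of 0.617% and 0.216% in the subset, against 0.251% and 0.142%.

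**Figure D4:**
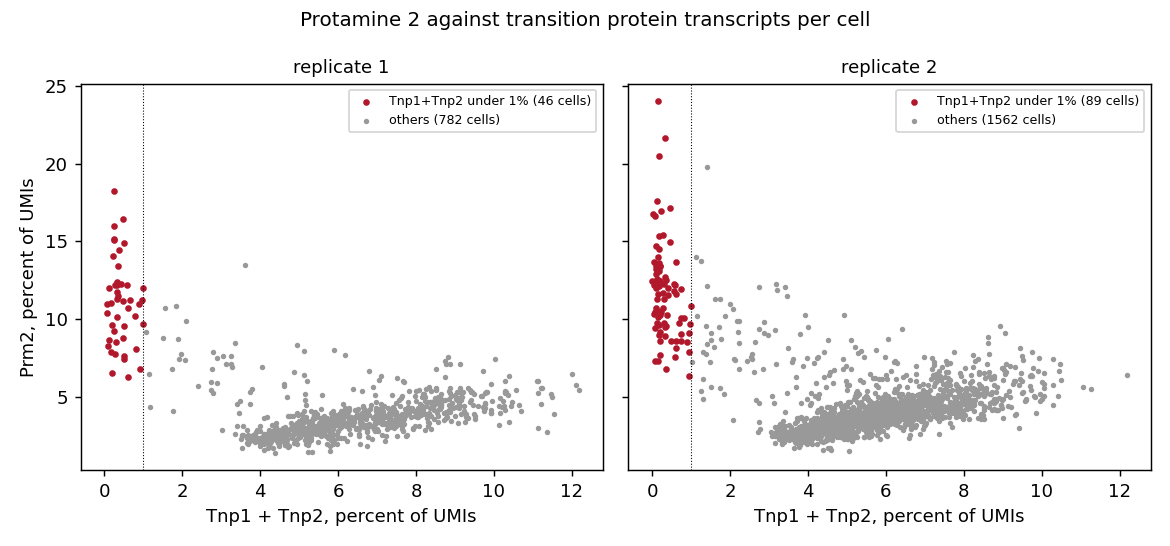
Each protamine-high cell by its share of UMIs from Tnp1 and Tnp2 (x axis, percent) and from Prm2 (y axis, percent), a panel for each replicate, with cells under 1% on the x axis in red left of the dotted line. The 46 and 89 red cells lie above most others in Prm2, and cells between 1% and 2% are few.

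Other transcripts of the subset differed from those of the other protamine-high cells as well, with no test since the subset was drawn from these values. Of 466 genes with at least 500 CPM outside the 4 genes on either side in both replicates, 135 were more than 2-fold higher in the subset in both replicates and 143 more than 2-fold lower. The small heat shock gene Hspb9 was at 9274 and 10573 CPM in the subset, against 2673 and 3014, and the testis chaperone gene Dnajb8 at 3977 and 5174, against 1153 and 1408. Dbil5, a testis acyl-CoA-binding relative, was at 16678 and 15077, against 4749 and 4451. All 3 were high in both replicates of the subset.

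Smcp was at 22910 and 20462 CPM in the subset, against 7453 and 7045, and the testis kinase gene Tssk6 at 2997 and 4805, against 890 and 1493. The sperm antizyme gene Oaz3 was at 4348 and 4868, against 1468 and 1650. Several chromatin transcripts were lower. Hmgb4 was at 401 and 355 CPM in the subset, against 5647 and 5836, and Hils1 at 267 and 207, against 2547 and 3876. H2al3, a testis histone H2A variant gene, gave only 4 and 3 UMIs in the subset, or 59.4 and 13.5 CPM, against 1286 and 1096. The chromodomain gene Cdyl was at 29.7 and 27.0, against 580 and 505. Ldhc was at 1617 and 1251, against 5552 and 6250, while Gapdhs was at 5001 and 4931, against 1597 and 1438, so members of the energy list lay on opposite sides. Prm3 did not hold with Prm2, at 950 and 1912 CPM in the subset, against 2088 and 2123.

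**Figure D5:**
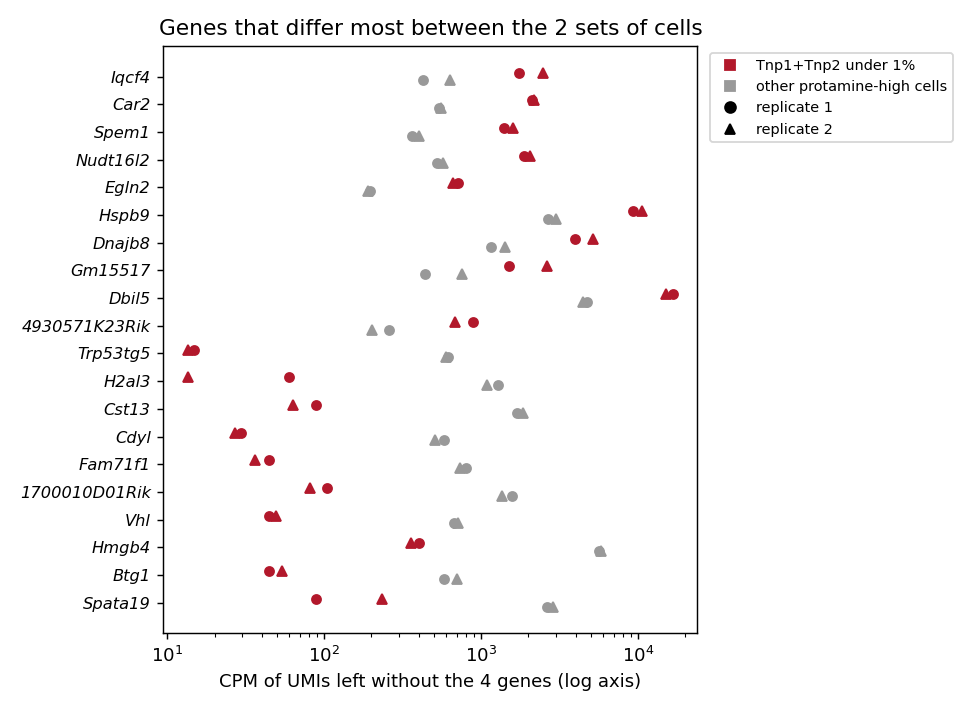
CPM outside the 4 genes (log axis) in protamine-high cells with under 1% of UMIs from Tnp1 and Tnp2 (red) and in the other protamine-high cells (grey), for the 10 genes most higher and the 10 most lower in the red set among those with at least 500 CPM, with a circle for replicate 1 and a triangle for replicate 2. Hspb9, Dnajb8 and Dbil5 are higher in the red set in both replicates, and Hmgb4, Cdyl and H2al3 lower.

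The ATAC libraries come from cells before these spermatids, and their peak lists, called per library, show whether the loci were open there. The scores are the authors' own, and a peak within 1 kb of the gene was counted. Tnp1 had a peak in 8 of 8 libraries, with fold enrichments of 2.99 to 3.89. Prm1 had a peak in 5, with a fold enrichment of 3.30 in knockout cKIT+ replicate 2, against 3.18 and 3.71 in the wild-type cKIT+ libraries, and 2.93 in knockout pachytene replicate 2, against 3.08 in wild-type pachytene replicate 2. Hils1 had a peak in 6 libraries, and Prm2, Tnp2 and Prm3 had none. All of these peaks were weak, none reaching 5 on the −log10 q scale. A peak so counted need not cover the start site. At Tnp1 none did in wild-type cKIT+ replicate 2 or knockout pachytene replicate 2. The peak missed it at Prm1 in knockout cKIT+ replicate 2 and wild-type pachytene replicate 2, and at Hils1 in knockout cKIT+ replicate 2.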

How the data were processed

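Whole testis of 2 Smarca5 fl/delta; Ddx4-Cre+ samples was profiled by 10x single-cell RNA-seq (15000 input cells each), and the deposited matrices hold UMI counts per gene and barcode made with Cell Ranger 7.1.0 (replicate 1, every barcode) and 9.0.1 (replicate 2), per the file headers. The labels name no filter on cells for these matrices, and Seurat 4.1.0 stands in the submitters' processing notes. ATAC broad peak lists give the score, the fold enrichment as a signal value and the −log10 q of each peak, as deposited by the authors, from 50000 sorted cells per library per the labels' protocols. The peak caller's version is not given in the sources used here.

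Barcodes were selected as the report states, and doublets were called with Scrublet (scanpy 1.11.5) but kept. UMI counts were summed per replicate and cell group into 6 sums and tested with edgeR 4.0.16 (R 4.3.3; filterByExpr, TMM, glmQLFit, glmQLFTest, replicate as block), which leaves 2 residual degrees of freedom per gene before sharing over genes. Same-replicate sums deviated together (r = 0.507, 0.436 and 0.558 over 15716 genes for high with intermediate, high with round and intermediate with round), since they come from the same suspension. In simulated data for the comparison with round spermatids, 200 of 200 genes changed by a log2 fold of 2 were recovered among 15425 tested, with 3 others called. The simulated sums shared 1 profile, held no difference between replicates and had equal numbers of rises and falls. They do not check the test or its scaling on data where 44.9% of genes are called. Alternatives were DESeq2 1.42.0, other scalings, filters, limits and left-out replicates or cells. In 1 scaling, called plain shares, all UMIs form the library size with no further scaling.

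The members, gene lists and tests were chosen with earlier results of these data known. Each list contributes up to 4 called genes in order of level and up to 2 not called, with the 10 largest rises and falls, the 10 highest levels, Smarca5 and Smarca1. H3f3b, Npm1, Tekt2, Acyp1, and against round spermatids Cabs1, Zpbp and Tbpl1, as well as genes named in the bins and the subset, were chosen after their values were seen. Promoters are from RefSeq (GRCm38.p6).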

Additional observations from a re-analysis of the deposited data

Results flagged for a closer look

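Some barcodes under the limit of 1000 UMIs met the protamine share and marker limits. They are set only against the limit of a count of 0, which a few barcodes exceed, so this is a description of barcodes not analysed above. In replicate 1 they were 8.61% of barcodes with 500 to 999 UMIs (305 of 3543, Clopper-Pearson 95% interval 7.71 to 9.58, limit of a count of 0 at 0.0847%) and 0.813% of those with 100 to 499 UMIs (514 of 63247, 0.744 to 0.886, limit 0.00474%). In replicate 2 they were 4.55% of barcodes with 500 to 999 UMIs (112 of 2464, 3.76 to 5.44, limit 0.122%). The ratio of Prm2 to Prm1 in these 3 sets was 1.28, 1.21 and 2.64, and the median mitochondrial share 0.943%, 1.89% and 0.530%. Free RNA gave 2.64% from the 4 genes in replicate 1.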

How the results depend on the processing

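Plain shares of all UMIs gave 2303 genes higher and 6382 lower against round spermatids, and 471 higher and 3737 lower against intermediate spermatids. Limiting members to a share of at least 15% gave 4574 calls against intermediate spermatids (2041 higher, 2533 lower), a member share of 4.11% and a median of 1192 genes. DESeq2 gave 1015 genes lower against intermediate spermatids. A limit of 5% gave a member share of 13.3%. Requiring 2000 UMIs gave medians of 5255 UMIs and 1876.5 genes, and 500 UMIs a median of 1255 genes. No peak at Prm1 or Tnp1 (0 and 0 libraries) reached a −log10 q of 5. The cause of these shifts was not tested.

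Leaving out each replicate in turn, with the fold limit and no test, gave 7042 to 7149 genes past it against round spermatids (3442 to 3619 higher, 3423 to 3707 lower) and 3148 to 3599 against intermediate spermatids (1430 to 1462 higher, 1718 to 2137 lower). The member share was then 10.2 to 11.6%, the medians 3066 to 4450 UMIs and 1405.5 to 1619 genes, and the mitochondrial median 0.145 to 0.263%. Without the replicate block, 6648 genes were called against round and 2061 against intermediate spermatids, and of the printed folds only Spaca3 and Smarca1, both against intermediate spermatids, lost their call. Called doublets left out gave 993 genes higher and 1621 lower against intermediate spermatids.

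Of 702 alternative values for the 54 printed fold changes, 664 kept direction and side of the threshold, 23 lost the call, 4 gained it and 11 changed sign, all 11 in genes not called. With plain shares Meig1 gave −0.065, Ldhc −0.42, Ybx3 −0.67 and Smarca5 −0.051 against round and −0.12 against intermediate spermatids. Ybx3 gave −0.033 with no filter on low counts, and −0.020 to 0.074 with 1 replicate left out. Ubb gave 0.015 with DESeq2's size factors and with DESeq2, 0.020 without members under 12%, and −0.10 to 0.060 with 1 replicate left out. The fits without members under 12% or without the Tnp-poor subset were added after the data were seen. Depth limits Smarca5 and Smarca1, at 14 to 79 UMIs per sum of protamine-high cells.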

Other observations

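X-linked transcripts (998 genes with a matched chromosome) held 2.33% and 2.21% of UMIs outside the 4 genes in protamine-high cells, 1.88% and 1.94% in intermediate spermatids, 1.10% and 1.28% in round spermatids and 0.0833% and 0.0716% in spermatocytes, which silence the X chromosome in meiosis. Y-linked transcripts held 0.0182% and 0.0110% in protamine-high cells, against 0.0398% and 0.0348% in round spermatids. Ribosomal protein transcripts were at 4.43% and 4.69%, against 4.66% and 5.07%. The RNA of protamine-high cells was more concentrated, with 24.5% and 26.7% outside the 4 genes in the 100 most abundant, against 17.9% and 19.9% in round spermatids.

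Apoe and C1qb led the macrophage markers in protamine-high cells. Apoe was at 136 and 204 CPM of all UMIs there, against 21.3 and 29.7 in round spermatids and 130 in barcodes of replicate 1 with 10 to 100 UMIs. C1qb was at 39.9 and 49.8 CPM, against 8.76 and 12.3 in round spermatids and 33.4 in those barcodes. C1qa was at 1.46 and 7.67 CPM, against 3.08 and 6.77 in round spermatids and 17.6 in those barcodes. Csf1r, which defines macrophages, was at 0.582 and 0.441 CPM in protamine-high cells.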
